A study of Mus musculus with 4 samples.

Results

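Alx1, Alx4, Prrx1, Prrx2, Twist1, Twist2, Foxc1 and Foxc2 encode transcription factors of the mesenchyme that builds the face and skull, and they were followed across the cell types of the mouse embryo head at E10.5, the middle of gestation. They were taken by name from the gene lists of 4 single-cell RNA sequencing libraries. All 8 were listed in every library, among 20719 genes in all and 18081 listed in every library. The series set 2 libraries from Apcdd1+/- embryos, which are labelled as heterozygous for Apcdd1, a gene whose product is known as an inhibitor of Wnt signalling, against 2 libraries from WT embryos. The sources used here do not give the altered part of Apcdd1, the strain or how many embryos made a library. The samples are titled embryonic brain, but the protocol describes whole heads, and mesenchyme was present in every library.

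Much of the mesenchyme of the face comes from the cranial neural crest, and the rest from mesoderm of the head. It fills the frontonasal prominence around the forebrain and eye and the pharyngeal arches that form the jaws. ALX factors are paired-type homeodomain proteins needed for the frontonasal region, and loss of ALX1 or ALX4 causes frontonasal malformation in humans. PRRX1 and PRRX2 are paired-related homeodomain proteins that act together in jaw and limb mesenchyme. TWIST1 and TWIST2 are basic helix-loop-helix factors that pair with E proteins and bind E-boxes, and TWIST1 loss in humans causes early fusion of skull sutures. FOXC1 and FOXC2 are forkhead factors of periocular mesenchyme, head mesoderm and vessels, and FOXC1 mutation in humans disturbs the front of the eye.

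Apcdd1+/- libraries (replicate 1, then replicate 2, as in all pairs of values below) held 9735 and 5726 cell barcodes and WT libraries 6491 and 3122, with between 55393605 and 96822641 unique molecular identifiers (UMIs) per library. After a filter on genes per cell and mitochondrial UMIs, 24259 cells were kept. Apcdd1 itself was not lower in mesenchyme of the libraries labelled Apcdd1+/-. It had 16.2 and 16.1 CPM (UMIs per 1000000 of the summed UMIs) there, and 14.3 and 15.7 CPM in WT libraries. Over all kept cells it had 77.4 and 49.5 CPM in Apcdd1+/- and 63.4 and 60.8 CPM in WT libraries, which overlapped. Directions by genotype are therefore those of the libraries as labelled. Pairs of libraries shared between 6 and 25 bead barcodes. Cells were classed by detected markers, none of which was one of the 8 genes, and 3377 cells were classed as mesenchyme: 1242 and 720 in Apcdd1+/- libraries, and 1027 and 388 in WT libraries. Their median depth was 11802 and 11576.5 UMIs in Apcdd1+/- libraries, and 15767 and 20752.5 UMIs in WT libraries. Cells were not replicates, and every comparison was made over sums per library.

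The 8 genes lie on several chromosomes, given here on GRCm38 with GENCODE vM21. Alx1 is at chr10:102998707-103030215 on the minus strand, Alx4 at chr2:93642384-93681339 and Prrx2 at chr2:30834972-30881251 on the plus strand. Prrx1 is at chr1:163245119-163313710 on the minus strand and Twist2 at chr1:91801461-91848028 on the plus strand. Twist1 is at chr12:33957671-33959829, Foxc1 at chr13:31806633-31812476 and Foxc2 at chr8:121116171-121118895, each on the plus strand, and Foxc1 and Foxc2 have 1 exon each. Alx4 overlaps Ext2 on the opposite strand, and the sources used here do not say whether reads were counted by strand. The longest identical run between the transcripts of a pair was 19 bases for the Alx genes and 17 for the Prrx genes. It was 23 for the Twist genes and 53 for the Foxc genes. Whether any read lay wholly inside such a run, and so could belong to either member of a pair, was not examined.

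The bases just before the start of 4 genes, Prrx1, Twist1, Twist2 and Foxc1, are shown (RefSeq, GRCm38.p6). The sources used here gave no such bases for Alx1, Alx4 and Foxc2, and Prrx2 is not shown. Capitals mark TAAT on either strand, the core that homeodomain proteins such as PRRX and ALX factors bind. The Prrx1 window is chr1:163313711-163313900 (minus strand), the Twist1 window chr12:33957421-33957670, the Twist2 window chr1:91801211-91801460 and the Foxc1 window chr13:31806396-31806632.
Prrx1: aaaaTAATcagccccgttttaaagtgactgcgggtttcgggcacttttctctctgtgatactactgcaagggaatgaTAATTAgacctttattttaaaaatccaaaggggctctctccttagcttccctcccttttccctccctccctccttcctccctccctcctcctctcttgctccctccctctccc
Twist1: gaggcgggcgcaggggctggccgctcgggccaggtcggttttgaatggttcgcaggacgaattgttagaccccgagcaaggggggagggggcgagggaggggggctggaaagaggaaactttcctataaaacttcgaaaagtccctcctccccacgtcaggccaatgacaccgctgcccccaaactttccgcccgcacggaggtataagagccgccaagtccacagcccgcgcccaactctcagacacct
Twist2: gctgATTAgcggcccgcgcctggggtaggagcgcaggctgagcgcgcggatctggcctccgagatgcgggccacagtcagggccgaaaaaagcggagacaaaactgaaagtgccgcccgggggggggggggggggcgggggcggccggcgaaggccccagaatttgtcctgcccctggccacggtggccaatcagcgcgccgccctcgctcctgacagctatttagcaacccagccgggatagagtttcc
Foxc1: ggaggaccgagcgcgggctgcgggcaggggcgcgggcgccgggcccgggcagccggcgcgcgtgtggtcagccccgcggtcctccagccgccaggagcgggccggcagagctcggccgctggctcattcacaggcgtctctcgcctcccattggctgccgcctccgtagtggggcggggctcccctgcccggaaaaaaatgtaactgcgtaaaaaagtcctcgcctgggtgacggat
Prrx1 held 3 TAAT matches in 190 bases, counting both strands, and the palindrome TAATTA accounts for a pair of overlapping ones on opposite strands. TAATTA is a sequence that 4.02% of 32851 promoter windows of that length hold. Twist2 held 1 TAAT match in 250 bases, written as ATTA, and Twist1 and Foxc1 held none. TAAT is present in 48.9% of windows of 190 bases and 54.9% of windows of 250 bases. The E-box CANNTG, the letters that TWIST and E proteins bind, was in none of the 4 windows, while 57.3% of windows of 190 bases and 66.2% of windows of 250 bases hold it. A match or its absence in these windows says nothing of binding.

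Among the 8 classes plotted, all 8 genes had their highest level in mesenchyme, and their order below that differed between genes. The genes were chosen as mesenchyme genes, so this order is a description with no test. In mesenchyme, Prrx1 had 179 and 239.6 CPM in Apcdd1+/- libraries and 167.7 and 252.7 CPM in WT libraries, against 9.35 to 10.2 CPM in neural progenitors over the 4 libraries. Twist1 had 174.7 and 120.3 CPM in Apcdd1+/- and 120.1 and 131.2 CPM in WT mesenchyme, against at most 1.54 CPM in progenitors. Mesenchyme lay far above progenitors in every library for both genes. The mean over the 4 libraries in mesenchyme was 76.5 ± 15.2 CPM for Alx1, 19.0 ± 2.22 for Alx4 and 87.6 ± 16.1 for Prrx2. It was 27.1 ± 4.19 CPM for Twist2, 55.4 ± 8.93 for Foxc1 and 18.4 ± 2.70 for Foxc2 (SD, n = 4 libraries). Twist2, Foxc2 and Alx4 averaged under 2 CPM in each of the other 7 classes, and in erythroid cells and macrophages no gene averaged 1 CPM. CPM values of different genes are not set against each other here, since which end or length of a transcript was read is unknown here.

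**Figure D1:**
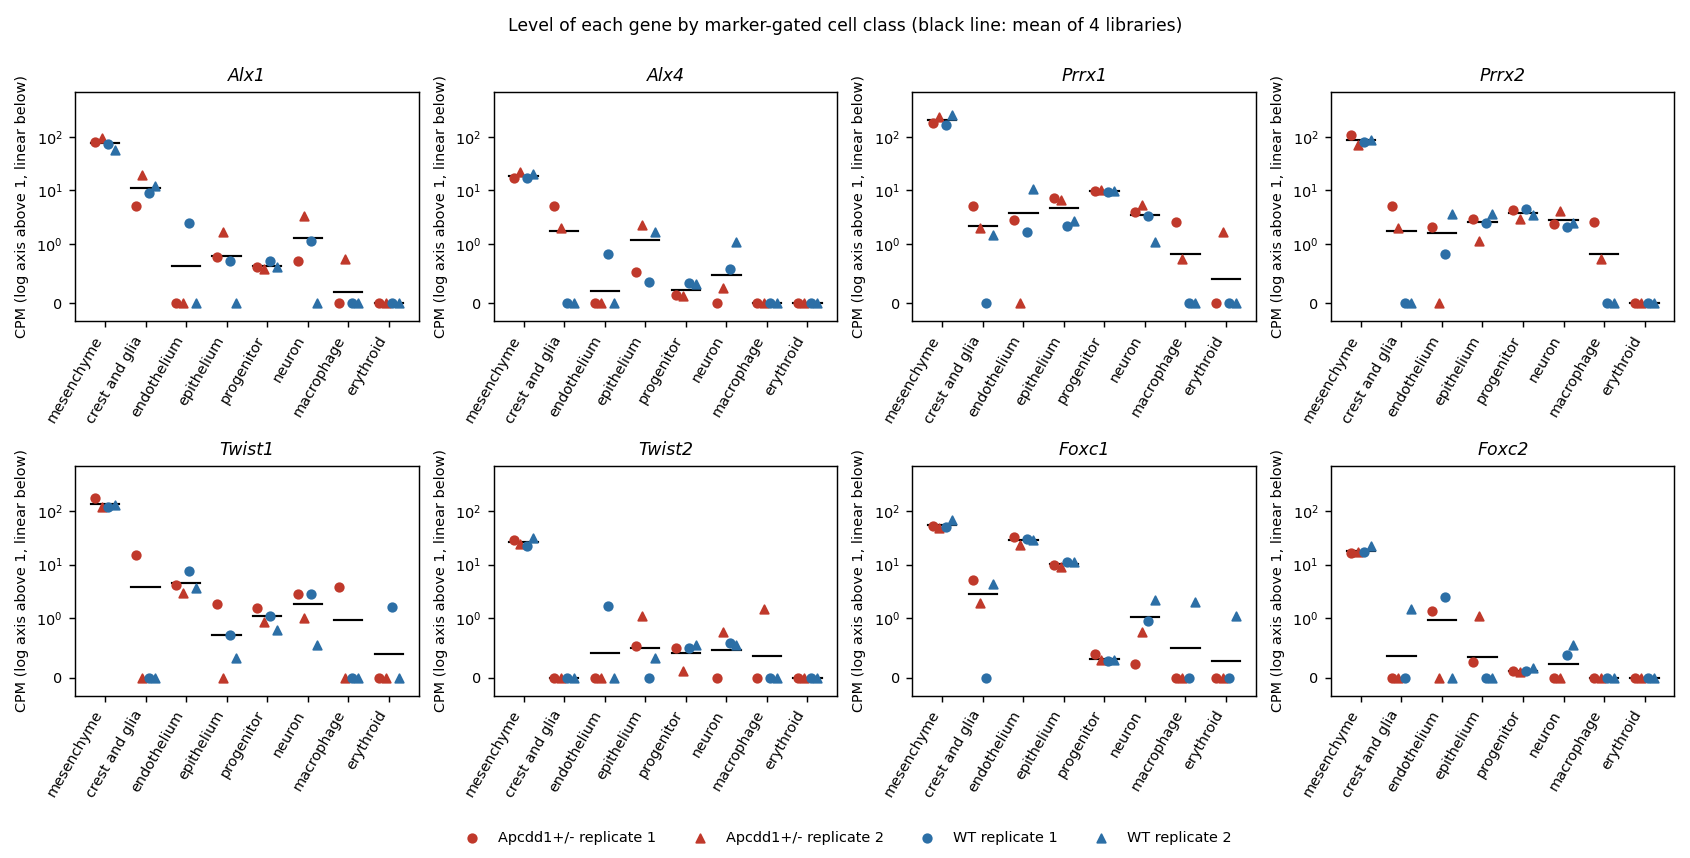
CPM of each gene (vertical, log axis above 1) in 8 marker-classed cell types, with 1 point per library and a black line at the mean of 4 libraries. Mesenchyme is the highest class in all 8 panels, Foxc1 also stands at 23.6 to 32.6 CPM in endothelium, and Prrx1 at 9.35 to 10.2 CPM in progenitors.

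Levels outside mesenchyme were gene-specific. Foxc1 had 32.6 and 23.6 CPM in endothelial cells of Apcdd1+/- libraries and 30.9 and 28.8 CPM in those of WT libraries, and its range there lay below mesenchyme and above epithelium in every library. Foxc2, known from vessel and lymphatic development, had 0 to 2.50 CPM in the same endothelial cells. Foxc1 in epithelium was 10.0 and 8.95 CPM in Apcdd1+/- libraries and 11.4 and 11.2 CPM in WT libraries. The summed level of the 8 mesenchyme class markers was 299.6 and 150.1 CPM in Apcdd1+/- endothelial cells and 317.9 and 248.8 CPM in WT endothelial cells, against 1549 to 1856 CPM in mesenchyme. Alx1 had its next level in neural crest and glial cells, at 5.12 and 19.5 CPM in Apcdd1+/- libraries and 8.86 and 11.9 CPM in WT libraries. That rests on 1 and 10 UMIs in 15 and 36 Apcdd1+/- cells, and 4 and 8 UMIs in 32 and 24 WT cells. Twist1 in those cells came from Apcdd1+/- replicate 1 alone and was at 0 in the other 3 libraries.

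Mesenchyme cells were split by UMIs of regional genes outside the 8. The gates described are Dlx1, Dlx2, Dlx5 or Dlx6 (pharyngeal arch) and Tbx1, Meox1 or Tcf15 (head mesoderm). Cells that met no gate are called gate-negative, and cells that met several were left out. Since the Dlx gate needs 2 UMIs, cells with 1 Dlx UMI could stay among gate-negative cells, which had 1.40 to 8.28 CPM of Dlx1 and 0.58 to 1.97 CPM of Dlx2. The Dlx gate held 66 and 38 Apcdd1+/- cells and 44 and 26 WT cells. It had Barx1 at 209 to 282 CPM and Lhx8 at 63.7 to 96.2 CPM, but no UMI of Hand2, a marker of the distal arches, and only 6.12 ± 4.39 CPM of Dlx5 and 5.52 ± 3.40 CPM of Dlx6 (SD, n = 4 libraries). It is therefore named by its genes below, and Dlx1, at 142 to 196 CPM, carried most of its UMIs.

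Dlx-positive mesenchyme had the highest Prrx1, Prrx2 and Twist1 and the lowest Alx1, Alx4, Foxc1 and Foxc2 of the 3 groups plotted, by mean. In this gate Prrx1 had 410.5 and 527 CPM in Apcdd1+/- libraries and 424 and 653 CPM in WT libraries. In gate-negative cells it had 157.5 and 300.5 CPM in Apcdd1+/- libraries and 160.5 and 240.5 CPM in WT libraries. The Dlx gate lay above gate-negative cells in every library, by 1.38 on the log2 scale (SE 0.11, adjusted p = 3.9e-13, edgeR with library as block and Benjamini-Hochberg adjustment over all genes, as in the other gate comparisons). Prrx2 averaged 143.5 ± 39.9 CPM in the Dlx gate and 95.5 ± 14.4 CPM in gate-negative cells, a log2 difference of 0.70 (SE 0.12, adjusted p = 9.8e-06). Twist1 averaged 193.1 ± 66.8 CPM and 145.2 ± 22.6 CPM in the same 2 groups, a difference of 0.53 (SE 0.10, adjusted p = 0.000119). Apcdd1+/- replicate 1 was the highest library for both genes in the Dlx gate, at 202 CPM of Prrx2 and 289 CPM of Twist1. Twist2 averaged 45.95 ± 10.6 CPM in the Dlx gate and 36.2 ± 8.03 CPM in gate-negative cells, and its difference of 0.51 (adjusted p = 0.0423) was not called without Apcdd1+/- replicate 1 (adjusted p = 0.379), without WT replicate 1 (0.227) or with 3 class markers required (0.184).

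The other 4 genes were lower in the Dlx gate. Alx4 was counted there in 0 and 3 UMIs in Apcdd1+/- libraries and 1 and 2 UMIs in WT libraries, which is 2.02 ± 1.96 CPM, against 13.1 ± 1.30 CPM in gate-negative cells (log2 difference -2.77, SE 0.46, adjusted p = 1.0e-05). Foxc2 was counted in 3 and 0 UMIs in Apcdd1+/- libraries and 6 and 3 UMIs in WT libraries, or 3.22 ± 2.62 CPM against 20.1 ± 6.57 CPM in gate-negative cells, and it fell by 2.39 on the log2 scale (SE 0.42, adjusted p = 2.7e-05). Foxc1 had 7.40 and 24.1 CPM in Apcdd1+/- Dlx-positive cells and 23.3 and 12.5 CPM in WT ones, against 51.3 to 64.3 CPM in gate-negative cells. The groups did not overlap, and the log2 difference was -1.79 (SE 0.23, adjusted p = 4.9e-08). Alx1 had 7.40 and 22.6 CPM in the Apcdd1+/- Dlx gate and 12.7 and 8.74 CPM in the WT one, against 31.9 and 31.9 CPM and 23.7 and 20.0 CPM in gate-negative cells. Its difference of -1.04 (SE 0.26, adjusted p = 0.00236) was not called without Apcdd1+/- replicate 1 (-0.71, adjusted p = 0.0641). All 8 genes were thus called, where 28.1% of the 9078 genes tested were called in this comparison. Gates were also read from cells thinned to 5000 UMIs. This left only 19 and 13 Apcdd1+/- cells and 17 and 7 WT cells in the Dlx gate. In that setting 7 of the 8 were called and Prrx2 was not (adjusted p = 0.107), where 788 of 7252 genes tested were called.

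Depth and class markers also differed between these groups. Median UMIs per cell were 15589.5 and 16229 in the Apcdd1+/- Dlx gate and 20640.5 and 32285.5 in the WT one, against 9142 and 8197 in Apcdd1+/- gate-negative cells and 9961 and 12592 in WT ones. The 8 mesenchyme class markers summed to 566 to 777 CPM in the Dlx gate, against 1885 to 2320 CPM in gate-negative cells, and their part in the result was not tested. With only 1 class marker required, a choice made after this was seen, all 8 genes were still called, where 2543 of 9081 genes tested were. With each Dlx-positive cell thinned to 5000 UMIs, Prrx1 was detected in 77.8% and 88.9% of Apcdd1+/- cells and 84.1% and 92.3% of WT cells (95.5% and 97.4% against 100.0% in both unthinned). In gate-negative cells at the same depth it was detected in 39.9% and 54.5% of Apcdd1+/- cells and 43.1% and 46.1% of WT cells, below the Dlx gate in every library. Prrx2 and Twist2 were likewise more often detected in the Dlx gate in every library, but Twist1 was not. Twist1 was detected in 81.0% and 44.4% of Apcdd1+/- and 52.3% and 42.3% of WT Dlx-positive cells. In gate-negative cells it was detected in 52.4% and 48.2% of Apcdd1+/- and 43.5% and 40.0% of WT cells. Thinning left out shallower cells unequally. It left out 99 and 55 Apcdd1+/- and 55 and 18 WT gate-negative cells. Of Dlx-positive cells it left out 3 and 2 in Apcdd1+/- and 0 and 0 in WT libraries.

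**Figure D2:**
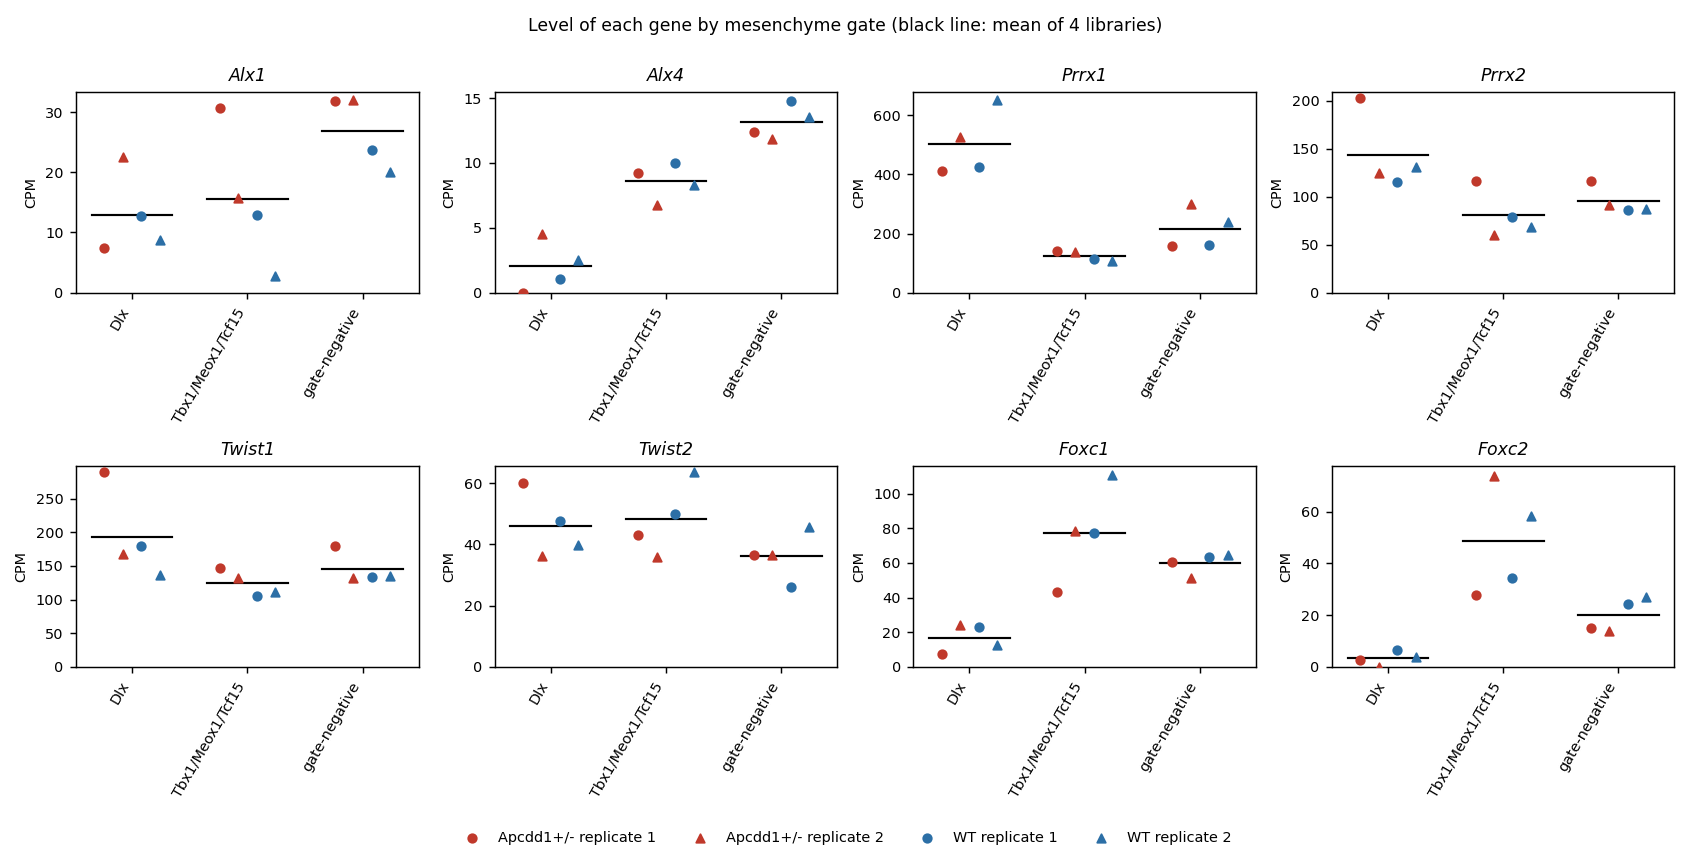
CPM of each gene (vertical, linear axis from 0) in the Dlx gate, the Tbx1/Meox1/Tcf15 gate and gate-negative mesenchyme, with 1 point per library and a black line at the mean of 4 libraries. Prrx1 peaks in the Dlx gate at 410.5 to 653 CPM, and Foxc2 in the Tbx1/Meox1/Tcf15 gate at 27.6 to 74.0 CPM.

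The Tbx1/Meox1/Tcf15 gate held few cells, 26 and 42 in Apcdd1+/- and 45 and 38 in WT libraries, and of the 3 groups it had the highest Foxc2. Foxc2 had 27.6 and 74.0 CPM in Apcdd1+/- libraries and 34.3 and 58.2 CPM in WT libraries, against 13.8 to 27.0 CPM in gate-negative cells. Every library of the gate was above every gate-negative value, with a log2 difference of 1.22 (SE 0.26, adjusted p = 0.0026). Without Apcdd1+/- replicate 2 it was 0.86 and not called (adjusted p = 0.146). Prrx1 fell there by 0.82 on the log2 scale (SE 0.15, adjusted p = 0.000413), with 141.3 and 136.7 CPM in Apcdd1+/- and 112.8 and 105.3 CPM in WT libraries. These 2 of 8 stand against 2.43% of all genes tested. Both gates were set against the same gate-negative cells. Alx1 averaged 15.5 ± 11.6 CPM in the gate and 26.9 ± 5.99 CPM in gate-negative cells, and its difference of -1.05 just missed the threshold (adjusted p = 0.0553). Alx1 was called without Apcdd1+/- replicate 1 (-1.37, adjusted p = 0.011). Requiring 1 more UMI for every gate left 10 and 25 Apcdd1+/- cells and 22 and 25 WT cells in this one, and the gate-negative group then held 675 and 363 Apcdd1+/- cells and 447 and 188 WT cells, against 467 and 246, and 287 and 133, in the main comparison. In that setting Foxc1 (0.67, adjusted p = 0.0188), Twist2 (0.95, 0.0107) and Alx1 (-1.76, 0.0371) were called as well. Calls also rose over all genes tested, to 617 of 8462 against 221 of 9078 in the main comparison.

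**Figure D3:**
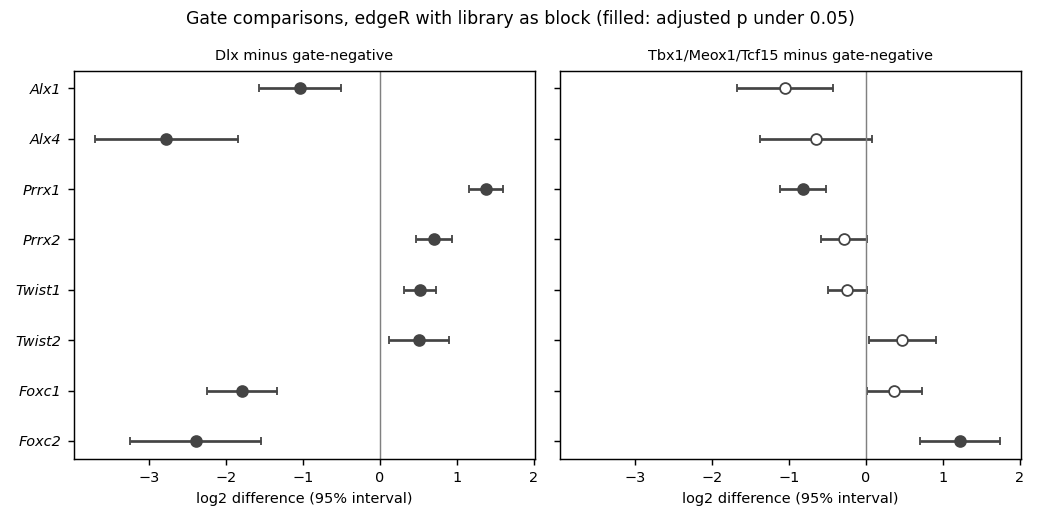
Log2 difference of each gene between a gate and gate-negative mesenchyme (horizontal, bars are 95% intervals of the edgeR fit), in 2 panels, 1 per gate. Filled points passed an adjusted p of 0.05: all 8 genes in the Dlx gate, and Prrx1 and Foxc2 in the Tbx1/Meox1/Tcf15 gate. The panels share the gate-negative cells.

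Other craniofacial transcription factors moved in both gates. Of 41 listed, 33 served no gate and 22 of these had enough counts to test. In the Dlx gate 6 rose and 9 fell, with a median log2 difference of -0.62 against 0.00 over all genes tested. Barx1, a homeobox gene of the jaw and molar region, rose most (3.43), followed by Lhx6 (2.83), Lhx8 (2.59), Tfap2a (1.86) and Sox9 (0.75). Tbx18 was at 0 UMIs in the Dlx gate in all 4 libraries, against 22.1 to 50.3 CPM in gate-negative cells, and Eya2 (-3.88), Tbx15 (-3.52), Foxd1 (-2.58) and Pax3 (-1.48) were next.

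In the Tbx1/Meox1/Tcf15 gate 8 rose, led by Tbx15 (1.80), Six2 (1.78), Tbx18 (1.54), Foxf2 (1.26) and Foxd1 (1.05), and Msx1 fell (-1.82), with a median of -0.30 against 0.01 over all genes tested. Of the E proteins that TWIST factors pair with, Tcf4 rose in the Dlx gate (0.29, adjusted p = 0.0237), where Tcf3 (0.19, adjusted p = 0.0749) and Tcf12 (0.04, adjusted p = 0.742) were not called. None of the 3 was called in the Tbx1/Meox1/Tcf15 gate, with differences of -0.08 (Tcf12) to 0.03 (Tcf4) and adjusted p-values of 0.769 to 0.942.

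Within single mesenchyme cells, detection of the genes was read after thinning every cell to 5000 UMIs, which kept 1092 and 625 Apcdd1+/- cells and 944 and 367 WT cells and left out 150 and 95 shallower Apcdd1+/- cells and 83 and 21 WT cells. Of these cells, 13.3% and 11.8% in Apcdd1+/- libraries and 13.03% and 12.3% in WT libraries had none of the 8 genes, and no cell had more than 6 of them. Foxc2 was detected in 14.6% and 17.9% of Foxc1-positive cells in Apcdd1+/- libraries and 14.2% and 16.9% in WT libraries, against 4.35% and 5.15%, and 6.90% and 8.27%, of Foxc1-negative cells. Foxc2 was thus more frequent in the Foxc1-positive cells of every library. The same was seen for Twist1 and Prrx2, where 62.7% and 55.3% of Prrx2-positive cells in Apcdd1+/- and 52.2% and 51.9% in WT libraries had Twist1, against 34.1% to 45.3% of Prrx2-negative cells. The reverse held for Foxc1 and Prrx1. Prrx1 was detected in 37.9% and 45.7% of Foxc1-positive cells in Apcdd1+/- libraries and 36.9% and 42.7% in WT libraries, against 47.3% to 57.6% of Foxc1-negative cells. These shares are descriptions of cells within a library, with no test.

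Across 13 groups of cells (the classes and gates), the level of each gene on the log2 scale was compared with that of 11428 genes, none a gate or class marker, that reach at least 10 CPM in a group. The groups share the same 4 libraries and most of the spread is between mesenchyme and other classes, so these coefficients are descriptive. Prrx1 was most like Prrx2 (Pearson r = 0.995), then Tnfaip6 (0.990) and Twist1 (0.967). Twist1 was most like Ddr2, a collagen receptor (0.981), then Twist2 (0.979) and Prrx2 (0.979), and Prrx2 was followed by Prrx1, Tnfaip6 (0.990) and Twist2 (0.981). For Twist2 the order was Prrx2 (0.981), Ddr2 (0.981) and Twist1. Alx1 was most like Alx4 (0.927), Dpep1 (0.926) and Foxd2 (0.923), and Alx4 like Fap (0.974), Dpep1 (0.969) and Fbln5 (0.966). Foxc1 was most like Scarf2 (0.971), Fkbp7 (0.950) and Snai1 (0.948), and Foxc2 like Svep1 (0.985), Gm5127 (0.981) and Col12a1 (0.980). Prrx1, Prrx2, Twist1 and Twist2 each had 2 of the other 3 among their 3 nearest genes. All 4 were called higher in the Dlx gate than in gate-negative cells, and both are among the 13 groups. Twist2, however, had a higher mean in the Tbx1/Meox1/Tcf15 gate (48.2 CPM) than in the Dlx gate (45.95 CPM). Neither Foxc gene was among the 3 nearest of the other.

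The comparison of Apcdd1+/- with WT libraries called none of the 8 genes in mesenchyme or in gate-negative cells. Over all genes, edgeR called 0.0% in mesenchyme (12864 tested, 197 at an unadjusted p under 0.05) and in gate-negative cells (10895 and 234), and DESeq2 called 0 genes in both groups. In mesenchyme the log2 difference was 0.37 for Alx1 (SE 0.21), 0.24 for Twist1 (SE 0.21), 0.10 for Prrx2 and 0.09 for Alx4. It was 0.00 for Prrx1 and Twist2 and -0.20 for Foxc1 and Foxc2, with an adjusted p of 1.00 for each gene. The 95% intervals of all 8 lay between -0.63 and 0.82. In simulated counts with the means and library sizes of this comparison, 200 genes averaging at least 10 CPM were changed 2-fold. Of these, 64% were recovered. Nothing in the labels says that libraries came from separate litters, so p-values measure only the spread between these libraries.

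Alx1 was the only 1 of the 8 whose Apcdd1+/- libraries lay outside the WT ones in mesenchyme, with 78.7 and 94.8 CPM in Apcdd1+/- and 74.7 and 57.7 CPM in WT. Of all genes tested, 11.1% were likewise higher without overlap, and 10.2% were lower, which none of the 8 was. In gate-negative cells its difference was 0.55 (SE 0.25, adjusted p = 1.00). Prrx2 was also higher without overlap there, where 12.5% of genes were, and Alx4, Foxc1 and Foxc2 were lower, where 14.1% were. Foxc2 had 15.2 and 13.8 CPM in gate-negative Apcdd1+/- cells and 24.3 and 27.0 CPM in WT ones (log2 difference -0.79, 95% interval -1.36 to -0.22, adjusted p = 1.00). No direction by genotype passed the adjustment over all genes.

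In mesenchyme, Prrx1 differed more between replicate numbers than between genotypes. It had 239.6 CPM in Apcdd1+/- replicate 2 and 252.7 CPM in WT replicate 2, against 179 and 167.7 CPM in the replicate 1 libraries of the same genotypes. The same order was seen in gate-negative cells and in the Dlx gate, but not in the Tbx1/Meox1/Tcf15 gate, where replicate 1 was the higher library in both genotypes. Progenitors showed little spread, with 9.74 and 10.2 CPM in Apcdd1+/- and 9.35 and 9.75 CPM in WT libraries. The share of all genes that split by replicate number in this way was not counted. The split is therefore not shown to be particular to Prrx1. The labels do not say what the replicate numbers stand for.

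**Figure D4:**
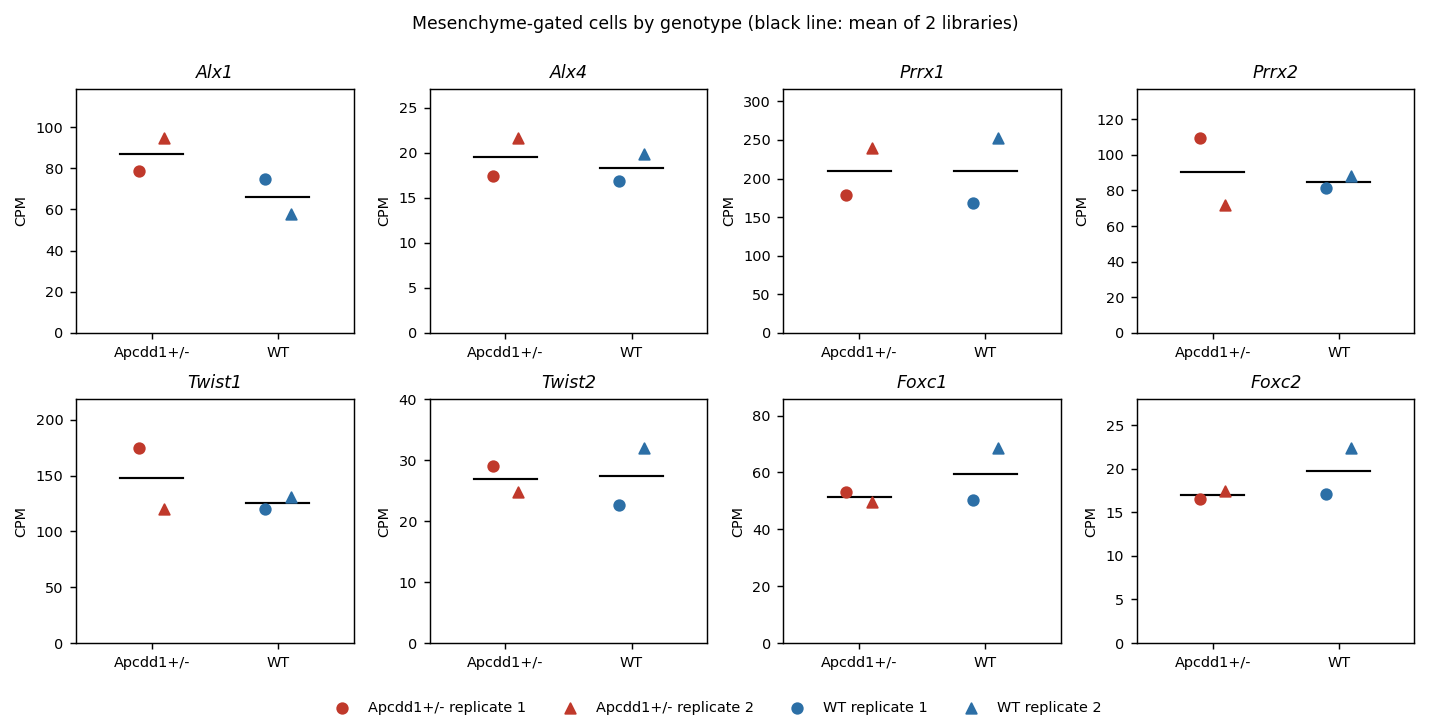
CPM of each gene in mesenchyme-classed cells (vertical, linear axis from 0), Apcdd1+/- on the left and WT on the right, with 1 point per library and a black line at the mean of 2 libraries. The libraries overlap in 7 of 8 panels, and in Alx1 the Apcdd1+/- libraries stand at 78.7 and 94.8 CPM and the WT libraries at 74.7 and 57.7 CPM.

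The share of mesenchyme cells in each of the 2 gates was compared at 5000 UMIs per cell. The Dlx gate held 1.74% and 2.08% in Apcdd1+/- and 1.80% and 1.91% in WT libraries (5.31% and 5.28% against 4.28% and 6.70% unthinned). The Tbx1/Meox1/Tcf15 gate held 1.65% and 4.32% in Apcdd1+/- and 2.86% and 6.54% in WT libraries (2.09% and 5.83% against 4.38% and 9.79% unthinned). The genotypes overlapped in both gates, with a two-sided exact permutation p of 0.667 to 1.0, where 2 against 2 libraries cannot give less than 0.333.

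Both Prrx genes were also counted in neural progenitors. The mean of Prrx1 was 209.7 CPM in mesenchyme and 9.77 ± 0.36 CPM in progenitors (SD, n = 4 libraries). The mean of Prrx2 was 87.6 CPM in mesenchyme and 3.78 ± 0.72 CPM in progenitors, and that of Twist1 136.6 and 1.10 ± 0.32 CPM. At 5000 UMIs per cell, Prrx1 was detected in 3.50% to 3.99% of progenitors, Prrx2 in 1.13% to 2.05% and Twist1 in 0.34% to 0.64% (6.66% to 9.52%, 2.29% to 5.29% and 0.84% to 1.27% unthinned). In neurons at the same depth Prrx1 was detected in 0% to 1.99% of cells, and Twist1 in 0% to 0.76%. Progenitors with at least 2 Prrx1 UMIs and no mesenchyme class marker numbered 34 and 20 in Apcdd1+/- and 19 and 4 in WT libraries. They were set against progenitors without Prrx1 or mesenchyme markers. No Twist1 UMI was counted in the cells with Prrx1, but Twist1 had only 0.52 to 1.28 CPM in those without. A 0 in so few cells therefore does not show its absence. The cells with Prrx1 had higher mean levels of Emx1 (63.6 against 7.80 CPM), Wnt8b (212 against 27.9), Dmrt3 (125 against 17.9) and Emx2 (248 against 47.7). Each was higher in all 4 libraries. These are genes known from the dorsal forebrain. Of other regional markers, En1, Nkx2-2, Nkx6-1 and Shh were at 0 in these cells, against 13.1, 7.35, 19.8 and 3.28 CPM. En2 (9.33 against 32.0 CPM), Pax3 (20.3 against 77.2) and Irx3 (16.9 against 91.4) had lower means but were present. Foxa2 (means of 1.86 and 5.84 CPM) was present in Apcdd1+/- replicate 1 alone, and was higher there (7.46 against 5.12 CPM). Six3 (10.4 against 18.7 CPM) was higher in 1 library only, and Pax6 (233 against 184 CPM) in 3. Nkx2-1, a ventral forebrain gene, had means of 11.04 and 11.6 CPM. It was higher in 1 library only (36.7 against 8.88 CPM in Apcdd1+/- replicate 2) and at 0 in these cells of both WT libraries. Tcf7l2, a gene of the diencephalon, had means of 129.2 and 101.8 CPM. It too was higher in 1 library only, WT replicate 2 with its 4 such cells (315.2 against 123.8 CPM). The genes were ranked after their values were seen, and the comparison is a description.

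Progenitors were then divided by Emx1 or Dmrt3 UMIs, a division also chosen after these values were seen. The positive group held 615 and 421 Apcdd1+/- cells and 421 and 210 WT cells. Prrx1 had 31.8 and 34.8 CPM in Emx1- or Dmrt3-positive progenitors of Apcdd1+/- libraries and 28.3 and 32.3 CPM in those of WT libraries. In progenitors without either gene it had 6.38 and 5.88 CPM in Apcdd1+/- and 6.05 and 5.85 CPM in WT libraries. The groups did not overlap. Emx1 and Dmrt3 had been picked as high in Prrx1-positive cells among these same progenitors, so the higher Prrx1 here is no separate support. Prrx2 averaged 3.86 ± 0.99 CPM in positive and 3.77 ± 0.68 CPM in negative progenitors (SD, n = 4 libraries), and Twist1 0.69 ± 0.71 and 1.17 ± 0.26 CPM, so neither followed Prrx1. The 8 mesenchyme class markers summed to 114 to 141 CPM in the positive group and 138 to 156 CPM in the negative one. Median depth was 10813 to 21320.5 UMIs in the positive group and 8791 to 16507.5 UMIs in the negative one, and its part in the result was not tested.

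**Figure D5:**
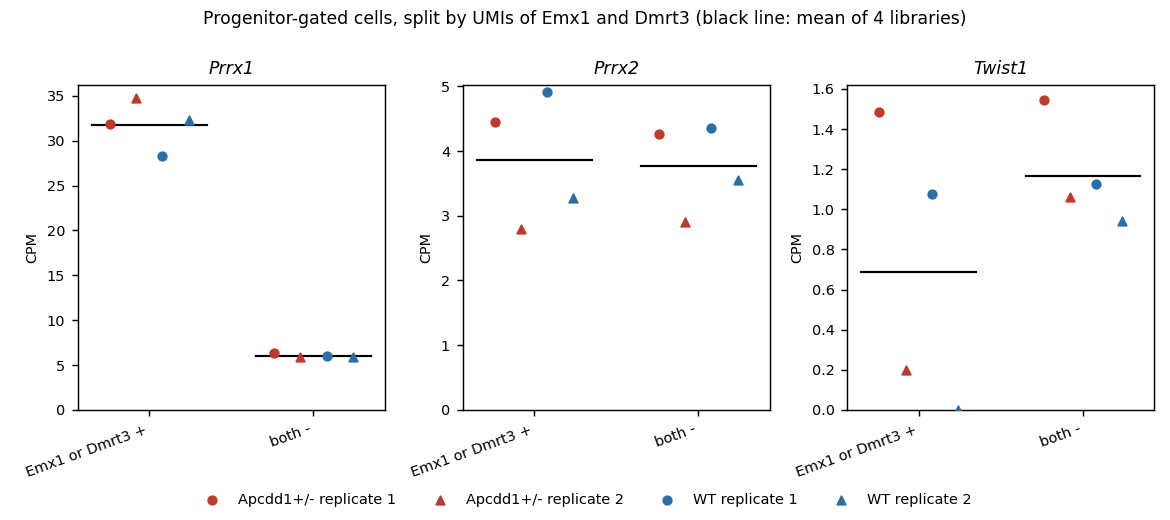
CPM of Prrx1, Prrx2 and Twist1 (vertical, linear axis from 0, a scale per panel) in progenitors with Emx1 or Dmrt3 and in progenitors with neither, with 1 point per library and a black line at the mean. Prrx1 stands at 28.3 to 34.8 CPM in the first group and 5.85 to 6.38 CPM in the second, while the means of Prrx2 are 3.86 and 3.77 CPM. The division was chosen because both genes were high in Prrx1-positive cells among these progenitors.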

How the data were processed

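Embryo heads (E10.5) were held overnight in preservation solution, dissociated, sorted against dead cells and made into droplet libraries with a DNBelab C kit, per the labels' protocols. The deposited files hold raw counts of UMIs for each gene in each cell, and per the file headers PISA 0.12 wrote them. The submitters' processing notes name mm10 and Scanpy 1.9.1. The sources used here do not name an aligner, an annotation or a cell filter. The barcode list of Apcdd1+/- replicate 1 names 3994 of its 9735 cells, so shared barcodes were counted over those named.

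Cells with at least 500 genes and under 10% mitochondrial UMIs were kept. A cell took the class with the largest share of its markers detected, with at least 2 markers and 1.5 times the share of the next class, and 12.5% to 17.3% of cells stayed unclassed. No cells were clustered and no doublet caller was run. There were 4 gates, all in 1 fit, of which 2 and some marker genes are not reported here. Gates needed 1 UMI, or 2 of the Dlx genes, and 39 and 39 Apcdd1+/- cells and 18 and 14 WT cells had 1 Dlx UMI.

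Sums per library were tested with edgeR 4.0.16 in R 4.3.3 (TMM, its low-count filter, quasi-likelihood test, Benjamini-Hochberg adjustment over all genes at 0.05). SE was taken from the fitted difference and its F statistic. Genotype was tested with at least 50 cells in every library, gates with at least 20 and the library as block; thinned and stricter gates, run as alternatives, had no such minimum and fell to 7 and 10 cells in a library. The models were tested on simulated data. Alternatives were DESeq2 1.42.0, other size factors, no filter, a replicate block, left-out libraries, other marker and gate limits, thinned gates and all barcodes. The 8 genes and the lists were chosen with earlier results of these data known. Named genes were the 8, the 3 most like each, and up to 5 called each way of a list.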

Additional observations from a re-analysis of the deposited data

Results flagged for a closer look

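In 32 groups of the 4 libraries (8 genes in mesenchyme, 2 gates and gate-negative cells), 3 held a library far from the others, where chance gives about 1 in 20. Foxc2 in mesenchyme had 22.4 CPM in WT replicate 2, against 16.5 to 17.5 CPM in the other 3 libraries. In gate-negative cells Apcdd1+/- replicate 1 had 117 CPM of Prrx2, against 86.5 to 91.5 CPM, and 179 CPM of Twist1, against 133 to 135 CPM.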

How the results depend on the processing

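No gene of the 8 was called by genotype under any alternative run. Over all genes, the genotype counts moved from 0. Without the low-count filter 3 genes were called in all kept cells, 10 in mesenchyme and 14 in gate-negative cells, and DESeq2 called 3 in all kept cells. The replicate numbers are not said to pair libraries. Same-numbered libraries deviated from their genotype means with a correlation of 0.167 in mesenchyme. With 2 libraries per genotype, both pairs must give the same value, so it counts once. With a replicate block 5 genes were called in all kept cells, 3 in mesenchyme and 0 in gate-negative cells. Leaving out 1 library, which assumes that a lone library varies like the rest, gave 0 to 222 genes in all kept cells (222 without Apcdd1+/- replicate 2 and 109 without Apcdd1+/- replicate 1), 0 to 11 in mesenchyme and 0 to 27 in gate-negative cells. In mesenchyme, differences near 0 changed sign: Prrx1 was -0.0021 over all barcodes, -6.3e-05 with at least 1 marker and -0.015 with at least 3, and Twist2 was 0.0016 with other size factors, 0.013 without the filter, 0.00033 with the replicate block and 0.00029 by DESeq2. Without 1 library the ranges were -0.041 to 0.22 for Alx4, -0.19 to 0.22 for Prrx1, -0.26 to 0.40 for Prrx2, -0.083 to 0.51 for Twist1 and -0.15 to 0.16 for Twist2. Against gate-negative cells, the Dlx gate called 788 genes with thinned gates, and 1782 to 2058 genes and 6 to 8 of the 8 without 1 library. These thinned Dlx gates held 7 to 19 cells per library. The Tbx1/Meox1/Tcf15 gate called 401 genes without the filter, 487 with thinned gates, 617 and 5 of the 8 with stricter gates, and 88 to 314 without 1 library (1 to 3 of the 8). Shares of gates, Apcdd1+/- minus WT in percentage points, ranged without 1 library from -0.11 to 0.23 (Dlx), -3.56 to 0.12 (Tbx1/Meox1/Tcf15) and -6.19 to 3.75 (gate-negative), and unthinned they were -0.20 for Dlx and 4.77 for gate-negative cells. The cause of these shifts was not tested. In gates with fewer than 50 cells in a library, genotype was not tested.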
